A study of Mus musculus with 12 samples.

Results

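The kinesin motor genes were followed in primary mouse embryonic fibroblasts that were infected with retrovirus for neuronal programming, by sequencing of polyA RNA. The family was taken as every gene whose symbol has the form Kif with a number (and an optional letter a to c) or Kifc with a number, and whose normalised value was at least 10 in at least 3 of the 11 libraries. The symbol form was met by 40 of the 23077 genes in the deposited table and the minimum by 38 of them, within 14207 genes that met it in all. These 38 were read as 13 mitotic kinesins, 16 transport kinesins and 9 other kinesins. Kif6 reached the value of 10 in 1 library and Kif28 in 0, so both were left out. The members nearest to the limit were Kifc2, Kif9, Kif27, Kif19a and Kif19b, all with group means under 30.

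All cells carried the Hb9::GFP reporter, which marks motor neurons, and all received NIL, a single cassette of the transcription factors Ngn2, Isl1 and Lhx3 joined by 2A peptides. RISDD cells also received HRAS(G12V)-IRES-SDD, in which the constitutively active HRAS mutant stands ahead of the internal ribosome entry site, and SDD is SNAP-p53DD, a SNAP-tagged dominant-negative fragment of p53. SDDIR cells received the same parts in the opposite order, with SDD first and HRAS(G12V) after the entry site. SDD cells received SDD without HRAS, and NIL cells received the 3 factors only. At 3 days after infection all cultures were moved to N3 medium, a serum-free neuronal medium with growth factors, and cells were collected by flow sorting at 4 days. RISDD, SDDIR and SDD cultures received RepSox (a small molecule that blocks TGF-beta receptor kinase) as well from day 3 and were sorted as SNAP-positive cells, whereas NIL cultures had no RepSox and were sorted as live single cells. A difference between any other group and NIL therefore joins SDD, RepSox and the sort, and these cannot be told apart. RISDD and SDDIR differ in the places of both HRAS(G12V) and SDD. RISDD against SDD adds HRAS(G12V) and also moves SDD behind the entry site. Within each of these comparisons the parts cannot be told apart either. The retroviral vectors' promoters and the ages of the embryos are not given in the sources used here. There were 3 RISDD, 3 SDD and 3 NIL libraries, and 2 distinct SDDIR libraries.

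The libraries held 14872639 to 29815073 reads each. NIL C stood apart, with 0.537% of its signal from mitochondrial genes against 2.60% to 4.04% elsewhere, and the counts of mitotic kinesins against NIL, with the changes of named kinesins that it moved most, are given with and without it. Summed fibroblast markers were 95938 to 99696 in RISDD, 168877 to 176209 in SDDIR, 562876 to 698113 in SDD and 743582 to 1087247 in NIL. Summed neuron markers were 14266 to 15639 in RISDD, 6645 to 6884 in SDDIR, 8304 to 15427 in SDD and 3108 to 5659 in NIL. In RISDD that sum is carried by Nefl and Nefm, neurofilament subunits, whereas Tubb3 and Dcx hold a larger part of it in SDD. Of the 11 neuron markers tested, 4 were called higher and 6 lower in RISDD against SDD (median log2 change -0.68), and 3 higher and 0 lower in RISDD against SDDIR (median -0.58). Summed epithelial markers were 8568 to 12692 in RISDD, 2392 to 3730 in SDDIR, 15.8 to 28.0 in SDD and 74.9 to 138 in NIL. Summed leukocyte markers ranged up to 1314 in RISDD, 852 in SDDIR and 1500 in SDD, against 3512 to 13599 in NIL. Summed endothelial markers were 530 to 658 in RISDD, 167 to 178 in SDDIR, 77.8 to 105 in SDD and 51.3 to 82.5 in NIL, and 3 of the 4 tested were called higher in RISDD against SDD and against SDDIR. The part of endothelial and neuron markers in the kinesin results was not tested. These bulk libraries cannot separate fewer cells of a type from less RNA per cell.

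Kinesins are motors that turn ATP hydrolysis into steps along microtubules. The mitotic kinesins build the spindle, move and align chromosomes and drive cytokinesis, and their transcripts are made mainly in cells that are passing through the cell cycle. The transport kinesins carry vesicles, organelles and RNA granules, and in neurons they take cargo from the cell body into axons and dendrites, which makes them a natural set to follow when a dividing fibroblast is programmed towards a neuron. A change below is a difference in log2(normalised value + 1), with its standard error and a Benjamini-Hochberg adjusted p from limma over all 14207 genes. Adjusted p under 0.05 counted as a call.

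Mitotic kinesins were higher in SDD cells than in NIL cells. Of the 13 members, 10 rose and 0 fell, with a median log2 change of 1.06, against 0.05 over all genes. Over all genes tested, 17.6% were called in this comparison, and 9.32% were called higher and 8.26% lower. The groups did not overlap for 10 of the 13 members, with SDD above, as for 19.0% of all genes.

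Kif11, the tetrameric motor that pushes the spindle poles apart, had 3106, 2170 and 2526 in the SDD libraries, against 1296, 687 and 643 in the NIL libraries. All SDD libraries lay above all NIL libraries, the mean was 3.10-fold higher on the fitted scale, and the log2 change was 1.63 ± 0.26 (SE, adjusted p = 0.00322, limma). Kif20b, which acts in cytokinesis, had 1323, 1122 and 1134 in SDD libraries, against 648, 400 and 218 in NIL libraries, a log2 change of 1.63 ± 0.31 (adjusted p = 0.00613, limma). All SDD libraries were again above all NIL libraries, and NIL C was the lowest. Kif15, a motor that supports Kif11 in holding the spindle bipolar, had 976, 761 and 1015 in SDD libraries, against 442, 276 and 249 in NIL libraries (log2 change 1.54 ± 0.22, adjusted p = 0.00166, limma). Kif14, a cytokinesis motor that recruits citron kinase to the midbody, had 811, 585 and 715 in SDD libraries, against 297, 148 and 323 in NIL libraries (log2 change 1.52 ± 0.26, adjusted p = 0.00431, limma). Kif18a, which dampens chromosome movements at the metaphase plate, had 373, 282 and 318 in SDD libraries, against 208, 113 and 66.0 in NIL libraries (log2 change 1.47 ± 0.33, adjusted p = 0.0141, limma).

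The other called members were Kif23, the motor subunit of centralspindlin at the central spindle, Kif4 and Kif20a, which organise the anaphase midzone, Kif22, a chromosome arm motor, and Kif2c, a microtubule depolymerase at centromeres. Their log2 changes were 1.31, 1.06, 1.04, 1.01 and 0.99, all with SDD above NIL in every library. Kifc1, a minus-end motor that focuses spindle poles, had 1296, 1145 and 1270 in SDD libraries, against 1201, 816 and 2648 in NIL libraries, with a log2 change of -0.15 (95% interval -0.90 to 0.59). Kif18b, which shortens astral microtubules, and Kif24, which acts on microtubules of the mother centriole, both changed by 0.62 on the log2 scale without passing the test. NIL C was the highest NIL library for all 3 of these genes, and for Kif11, Kif15, Kif18a and Kif20b it was the lowest, so the NIL group did not spread in 1 direction. NIL A exceeded NIL B in all 13 members, by 1.47-fold to 2.00-fold.

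Without NIL C the fit called 12 of the 13 mitotic kinesins higher in SDD, with a median log2 change of 1.2. Counts over all genes also moved when libraries were left out, so the main fit's share of all genes is no background for that count. Kif18b (1.0) and Kif24 (1.01) passed without NIL C, while Kifc1 (0.32, adjusted p = 0.168, limma) did not. The log2 changes of Kif11, Kif20b and Kif18a were then smaller, at 1.45, 1.22 and 1.07. Kif18a, Kif2c and Kif22 lost their calls without SDD A or without SDD C (adjusted p of 0.0503 to 0.0773, limma), and a fit on the SDD and NIL libraries alone called 4 of the 13. Leukocyte markers summed to 591 to 1500 in SDD against 3512 to 13599 in NIL, and their part in the result was not tested.

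**Figure D1:**
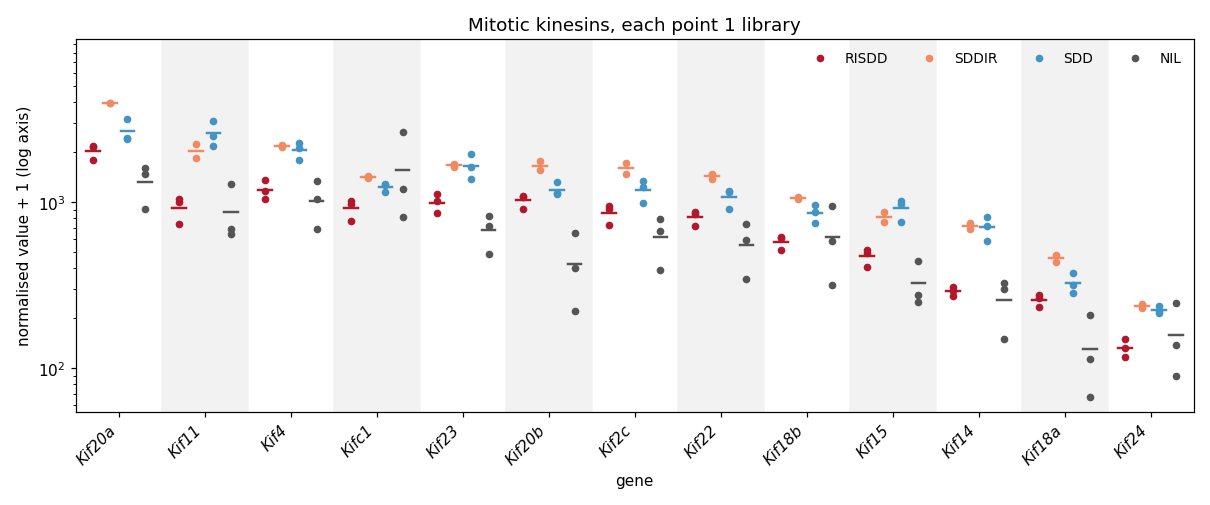
Normalised value + 1 of the 13 mitotic kinesins (log axis), 1 point per library, with RISDD, SDDIR, SDD and NIL from left to right within each gene and a short line at each group's mean. RISDD libraries lie below every SDD and SDDIR library for all 13 genes, and the NIL libraries are the most spread.

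HRAS(G12V) placed after the entry site went with no call among the mitotic kinesins. In SDDIR against SDD, 0 of the 13 members passed the test in limma and 1, Kif20a, had an unadjusted p under 0.05. By edgeR and by DESeq2 on the recovered reads 0 were called as well. Over all genes 22.5% were called, 8.66% higher and 13.9% lower. The median log2 change was 0.20. Kif20a had 3955 and 3957 in SDDIR libraries, against 3183, 2399 and 2446 in SDD libraries (log2 change 0.58, 95% interval 0.05 to 1.1, adjusted p = 0.111, limma). Kif11 had 2232 and 1848 in SDDIR libraries, which overlapped the SDD range of 2170 to 3106, with a 95% interval of -0.99 to 0.31 for the log2 change. Intervals of this width leave room for changes of either sign, and SDDIR libraries lay above all SDD libraries for 7 of the 13 members, as for 32.6% of all genes. Fits with SDDIR B counted as 2 libraries, without NIL B or without NIL C each called 1 member, and a fit on these groups alone called 5.

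HRAS(G12V) placed ahead of the entry site went with lower mitotic kinesins. In RISDD against SDD, 5 of the 13 members fell and 0 rose, with a median log2 change of -0.57 against 0.02 over all genes. Over all genes 42.6% were called and 22.6% were called lower (20.0% higher), so the share of members called, 5 of 13, stands against a high background. RISDD libraries lay below every SDD library for 13 of 13 members, as for 34.6% of all genes. The members that fell were Kif11, Kif14, Kif15, Kif4 and Kif23. These counts depend on the roles given: Kif2a, which also works at spindle poles, was listed with the other kinesins and was called higher. It had 3378, 3747 and 3553 in RISDD libraries, against 1531, 1861 and 1984 in SDD libraries.

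Kif11 had 1001, 736 and 1047 in the RISDD libraries, against 3106, 2170 and 2526 in the SDD libraries, and was 2.80-fold lower (log2 change -1.49 ± 0.26, adjusted p = 0.00107, limma). The highest RISDD library reached less than the lowest SDD library, and the RISDD values stood within the NIL range of 643 to 1296. Kif14 had 289, 272 and 308 in RISDD libraries, against 811, 585 and 715 in SDD libraries, and was 2.40-fold lower (log2 change -1.27 ± 0.26, adjusted p = 0.00273, limma). Kif15 had 512, 403 and 495 in RISDD libraries, against 976, 761 and 1015 in SDD libraries (log2 change -0.96 ± 0.22, adjusted p = 0.00465, limma). These 3 calls held without each library in turn. Kif4 had 1356, 1043 and 1174 in RISDD libraries, against 2278, 1802 and 2132 in SDD libraries (log2 change -0.80 ± 0.22, adjusted p = 0.0124, limma). Kif23 had 1010, 856 and 1117 in RISDD libraries, against 1947, 1374 and 1629 in SDD libraries (log2 change -0.72 ± 0.21, adjusted p = 0.0158, limma). Both lost the call without SDD A or without RISDD B, with adjusted p of 0.0514 to 0.0695 (limma), and the count of members that fell was then 3.

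The members that did not pass ranged from a log2 change of -0.76 for Kif24 to -0.22 for Kif20b. Kif20b had 1070, 913 and 1090 in RISDD libraries, against 1323, 1122 and 1134 in SDD libraries, with a 95% interval of -0.90 to 0.46 for the log2 change. The count depended on the libraries that shared the estimate of the spread. It was 8 without NIL C, 9 without NIL B and 11 in a fit on the RISDD and SDD libraries alone. The shares of all genes given above belong to the main fit and are no background for these counts. Summed epithelial markers were higher in RISDD, at 8568 to 12692 against 15.8 to 28.0 in SDD, and summed fibroblast markers were lower. The part of both in the result was not tested.

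Mitotic kinesins were lower in RISDD cells than in SDDIR cells. In RISDD against SDDIR, 4 of the 13 members fell and 0 rose, where 9.69% of all genes were called and 5.05% were called lower (4.64% higher). The median log2 change was -0.85. RISDD libraries lay below both SDDIR libraries for 13 of 13 members, as for 29.0% of all genes. Kif14 had 289, 272 and 308 in RISDD libraries, against 694 and 750 in SDDIR libraries (log2 change -1.31 ± 0.29, adjusted p = 0.0195, limma). Kif20a had 2145, 1786 and 2193 in RISDD libraries, against 3955 and 3957 in SDDIR libraries (log2 change -0.96 ± 0.24, adjusted p = 0.0300, limma). Kif11 and Kif4 changed by -1.15 ± 0.29 and -0.88 ± 0.24 on the log2 scale (adjusted p = 0.0357 and 0.0457, limma). For these 4 genes every RISDD library was under every SDDIR library. The 4 calls rest on few libraries: the count was 0 without any 1 of the RISDD or SDDIR libraries, 2 without SDD B, 1 without SDD C, 8 without NIL B and 13 without NIL C. The call of Kif4 was also lost without SDD A. Counts over all genes moved in such fits too, so the shares of all genes given above are a background for the main fit only. Epithelial markers went the other way, at 8568 to 12692 in RISDD and 2392 to 3730 in SDDIR, and their part in the result was not tested.

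Summed over the 13 members, the normalised value was 10499 ± 1184 in RISDD (SD, n = 3), 19267 ± 637 in SDDIR (SD, n = 2), 16721 ± 2240 in SDD (SD, n = 3) and 8536 ± 2509 in NIL (SD, n = 3). The RISDD and NIL ranges overlapped, at 9133 to 11220 in RISDD and 5655 to 10242 in NIL. Against NIL, 5 members were called higher in RISDD and 10 in SDDIR, where 23.2% and 15.3% of all genes were called higher. Those higher in RISDD were Kif20b (log2 change 1.41), Kif18a (1.14), Kif20a (0.65), Kif23 (0.58) and Kif15 (0.58), and Kif20b alone among these 5 kept its call without each library in turn. Without NIL C the counts were 6 in RISDD and 13 in SDDIR, while the shares of all genes given above belong to the main fit. In RISDD, Kif20b then stood at 1.0 and Kif18a at 0.74 on the log2 scale, Kif15 lost its call (0.42, adjusted p = 0.0982, limma), and Kif2c and Kif22 gained one (adjusted p = 0.0180 and 0.00570, limma). Leaving out other libraries moved the count in RISDD as well, to 1 without RISDD C. The others that moved it were NIL B, SDD C, SDDIR A, SDDIR B and RISDD B, each leaving 3 members, and RISDD A, leaving 2.

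The start regions of the mitotic kinesins hold letters in common that their choice did not use. Promoter windows of 250 bases before to 50 bases after the transcription start, from RefSeq on GRCm38.p6, matched 12 of the 13 members. The CHR element, a motif of cell-cycle genes that is bound by the DREAM and MuvB complexes, was searched on both strands as TTTGAA, and 10 of the 12 windows held it, against 17.9% of all promoters and 1 of 13 windows of transport kinesins, that of Kif1a. The CCAAT box, bound by NF-Y, was searched on both strands as CCAAT, and 8 of the 12 windows held it, against 37.4% of all promoters. Stretches of 100 bases are shown for 6 members as examples, chosen after the motif positions and the changes were known, all with a CHR match close to the start. Capitals mark CHR and CCAAT matches on either strand, so that TTCAAA and ATTGG are the reverse strand of TTTGAA and CCAAT. The stretches read along each gene's own strand. That of Kif11 lies at chr19:37376316-37376415 on the plus strand, that of Kif15 at chr9:122951015-122951114 on the plus strand, that of Kif4 at chrX:100626015-100626114 on the plus strand, that of Kif23 at chr9:61946750-61946849 on the minus strand, that of Kif20b at chr19:34922308-34922407 on the plus strand and that of Kifc1 at chr17:33890584-33890683 on the minus strand.
Kif11: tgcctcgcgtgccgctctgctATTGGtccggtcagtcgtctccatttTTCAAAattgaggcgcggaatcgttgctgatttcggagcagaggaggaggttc
Kif15: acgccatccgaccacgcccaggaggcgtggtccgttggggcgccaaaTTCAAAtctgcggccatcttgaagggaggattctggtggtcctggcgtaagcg
Kif4: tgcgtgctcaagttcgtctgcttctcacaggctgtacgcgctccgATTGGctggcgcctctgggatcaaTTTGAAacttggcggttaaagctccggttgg
Kif23: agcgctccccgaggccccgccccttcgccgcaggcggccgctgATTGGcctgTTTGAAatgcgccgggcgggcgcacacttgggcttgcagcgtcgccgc
Kif20b: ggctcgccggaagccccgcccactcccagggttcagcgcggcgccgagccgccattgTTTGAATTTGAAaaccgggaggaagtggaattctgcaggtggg
Kifc1: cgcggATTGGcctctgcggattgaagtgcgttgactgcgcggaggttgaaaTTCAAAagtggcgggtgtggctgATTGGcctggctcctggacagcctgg

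Of the 10 windows with a CHR match, 8 held one that began within 20 bases of the annotated start, namely these 6 and those of Kif18b and Kif22. The match of Kif14 began 228 bases and that of Kif2c 103 bases before the start, and the windows of Kif18a and Kif24 held none. In Kif11, Kif4, Kif23, Kif22, Kif18b and Kifc1 a CCAAT match stood upstream of the CHR match near the start, and Kif20b held 2 CHR matches end to end. Kifc1 and Kif18b held both motifs in this order and did not pass the test between SDD and NIL, so the letters alone did not sort members by their calls. These matches are letters in a window and not shown sites of binding.

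Transport kinesins did not move as a set. In SDD against NIL, 1 of the 16 members rose and 1 fell. In SDDIR against SDD, 3 rose and 2 fell, and in RISDD against SDD 4 rose and 3 fell. In RISDD against SDDIR, 1 rose and 1 fell. Median log2 changes were 0.11, -0.08, 0.00 and 0.17 in these comparisons, against 0.05, 0.01, 0.02 and 0.01 over all genes. The shares called stand at 2, 5, 7 and 2 of 16, against a background of 17.6%, 22.5%, 42.6% and 9.69% of all genes, so as a count they are near it. Summed over the 16 members, the normalised value was 22262 ± 516 in RISDD (SD, n = 3), 20728 ± 505 in SDDIR (SD, n = 2), 20678 ± 427 in SDD (SD, n = 3) and 23131 ± 1004 in NIL (SD, n = 3).

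Kinesin-1 carries cargo outward along axons, and its heavy chains are encoded by Kif5a, Kif5b and Kif5c. Kif5c, enriched in neurons, was higher in both HRAS groups. Its values were 1273, 1276 and 1192 in RISDD libraries, 991 and 1028 in SDDIR libraries, 587, 600 and 541 in SDD libraries and 559, 565 and 487 in NIL libraries. No group with HRAS(G12V) overlapped one without it, and the spread within each group was small. Kif5c was 2.16-fold higher in RISDD than in SDD (log2 change 1.11 ± 0.11, adjusted p = 2.28e-05, limma) and 1.75-fold higher in SDDIR than in SDD (log2 change 0.81 ± 0.12, adjusted p = 0.00121, limma). Both comparisons share the SDD libraries. Each call held under all 24 alternatives tried. RISDD against SDDIR gave 0.30 ± 0.12 (adjusted p = 0.162, limma), and SDD against NIL gave 0.10, with a 95% interval of -0.14 to 0.35. Summed epithelial markers were also higher in both HRAS groups, at 8568 to 12692 in RISDD and 2392 to 3730 in SDDIR, against 15.8 to 28.0 in SDD. Their part in the results of Kif5c and the other transport kinesins was not tested.

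Kif5a, the neuron-specific heavy chain, moved the opposite way at a low level. It had 27.2, 20.2 and 23.7 in RISDD libraries and 25.4 and 13.0 in SDDIR libraries, against 94.7, 51.2 and 88.5 in SDD libraries, with 30.1, 37.9 and 61.1 in NIL libraries. Every HRAS library was under every SDD library. The log2 change was -1.64 ± 0.38 in RISDD against SDD (adjusted p = 0.00541, limma) and -1.99 ± 0.42 in SDDIR against SDD (adjusted p = 0.00715, limma), and the second call was lost without SDDIR B (adjusted p = 0.0881, limma). Kif5b, the heavy chain of most tissues, had 6567, 7127 and 6969 in RISDD libraries, 6813 and 6071 in SDDIR libraries, 5912, 6826 and 6474 in SDD libraries and 6180, 7208 and 3946 in NIL libraries. It was called in none of the 6 comparisons by limma, and the log2 change in RISDD against SDD was 0.11 (95% interval -0.32 to 0.53). Set on a scale per kilobase of transcript, Kif5c made up 13.7 ± 0.746% of the 3 heavy chains in RISDD (SD, n = 3), 12.1 ± 1.15% in SDDIR (SD, n = 2), 7.27 ± 0.594% in SDD (SD, n = 3) and 7.81 ± 1.67% in NIL (SD, n = 3). Kif5a stayed at or under 1.39% in every library.

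Kif17, a homodimeric motor known in neurons for carrying NMDA receptor subunits into dendrites and also found in cilia, had the greatest log2 change of any transport kinesin in each comparison of an HRAS group with SDD. It had 188, 155 and 272 in RISDD libraries, 119 and 81.8 in SDDIR libraries, 9.02, 18.4 and 22.7 in SDD libraries and 11.4, 7.80 and 21.4 in NIL libraries. The lowest HRAS library was above the highest library without HRAS(G12V). It was 12-fold higher in RISDD than in SDD (log2 change 3.59 ± 0.44, adjusted p = 8.54e-05, limma) and 5.98-fold higher in SDDIR than in SDD (log2 change 2.58 ± 0.49, adjusted p = 0.00369, limma), and both calls held under all 24 alternatives. RISDD against SDDIR gave 1.01 ± 0.49 (adjusted p = 0.244, limma).

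Kif17 and Kif5c, the transport kinesins that rose in both HRAS groups with calls that held throughout, share an 8-base match in their promoter windows. The full CRE, TGACGTCA, which reads alike on both strands and is bound by CREB and ATF factors, stood in 2 of the 13 windows that matched 11 transport kinesins, against 1.79% of all promoters. Among the other members it stood in 1 window, that of Kif18a. The AP-1 motif, searched on both strands as TGANTCA, stood in 0 windows of the 29 members that matched, against 7.81% of all promoters. The stretches of 100 bases around the CRE are shown with it in capitals, on GRCm38.p6. That of Kif5c lies at chr2:49619214-49619313 and that of Kif17 at chr4:138262119-138262218, both on the plus strand.
Kif5c: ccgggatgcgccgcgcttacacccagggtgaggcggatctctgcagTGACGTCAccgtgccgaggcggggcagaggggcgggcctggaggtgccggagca
Kif17: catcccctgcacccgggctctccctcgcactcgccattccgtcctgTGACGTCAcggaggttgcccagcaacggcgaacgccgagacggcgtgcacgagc

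The match begins 26 bases before the annotated start in Kif5c and 86 before it in Kif17. Whether it is used in these cells was not measured, and the motifs were searched with the changes already known.

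Kinesin-2, the heterotrimeric motor of anterograde transport along cilia and axons, is built from Kif3a with Kif3b or Kif3c. Kif3c, the partner enriched in neurons, had 924, 1011 and 1009 in RISDD libraries and 794 and 881 in SDDIR libraries, against 674, 549 and 546 in SDD libraries, with 540, 496 and 675 in NIL libraries. It was 1.67-fold higher in RISDD than in SDD (log2 change 0.74 ± 0.15, adjusted p = 0.00211, limma), and that call held under all 24 alternatives. The SDDIR libraries also lay above SDD (log2 change 0.51 ± 0.16, adjusted p = 0.0471, limma), a call lost without NIL A, SDD B, SDD C or any 1 of the RISDD or SDDIR libraries, with adjusted p of 0.0584 to 0.263 (limma). Kif3b had 1320, 1343 and 1187 in RISDD libraries, against 905, 951 and 1072 in SDD libraries (log2 change 0.40 ± 0.14, adjusted p = 0.0476, limma). All RISDD libraries lay above all SDD libraries, and the call was lost without any 1 library other than NIL B or NIL C, with adjusted p of 0.0544 to 0.142 (limma). Kif3a changed by 0.22 in RISDD against SDD, with a 95% interval of -0.16 to 0.59.

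Kinesin-3 motors carry synaptic vesicle precursors, dense-core vesicles and endosomes. Kif1a, the neuronal carrier of synaptic vesicle precursors, had 1795, 1872 and 1708 in RISDD libraries, 1104 and 1203 in SDDIR libraries, 1435, 1197 and 1409 in SDD libraries and 1680, 1470 and 2267 in NIL libraries. The NIL libraries were thus as high as the RISDD libraries, and RISDD against NIL gave a log2 change of 0.01 (95% interval -0.34 to 0.36). RISDD was above SDDIR (log2 change 0.63 ± 0.18, adjusted p = 0.0497, limma). That call was lost under 16 of the 24 alternatives, among them every fit that left out a library other than NIL B or NIL C, with adjusted p of up to 0.293 (limma). SDDIR was below NIL (log2 change -0.62 ± 0.18, adjusted p = 0.0219, limma), a call lost without SDDIR A or SDDIR B (adjusted p of 0.0783 to 0.144, limma). Without NIL C it was -0.45 (adjusted p = 0.00672, limma).

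Kif1c, a carrier of integrins and dense-core vesicles, had 2928, 3385 and 3494 in SDD libraries, against 4808, 5001 and 8553 in NIL libraries, and fell in SDD (log2 change -0.86 ± 0.20, adjusted p = 0.0149, limma). Without NIL C the log2 change was -0.59 (adjusted p = 0.000787, limma), and without SDD A the call was lost (adjusted p = 0.0606, limma). Kif13b, which transports phosphoinositide and growth factor receptor cargo, had 616, 622 and 674 in RISDD libraries and 570 and 613 in SDDIR libraries, against 966, 885 and 847 in SDD libraries. It fell in RISDD (log2 change -0.49 ± 0.11, adjusted p = 0.00448, limma) and in SDDIR (log2 change -0.60 ± 0.12, adjusted p = 0.00591, limma), and the second did not pass when SDDIR A was left out (adjusted p = 0.0667, limma). Kif1b and Kif16b, carriers of mitochondria and early endosomes, were called in none of the 6 comparisons by limma, and Kif13a was called in RISDD against NIL only, at a log2 change of -0.57.

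Kif21b, a kinesin-4 motor that limits microtubule growth in neurons and lymphocytes, was low in RISDD alone. It had 711, 668 and 748 in RISDD libraries, 1370 and 1480 in SDDIR libraries, 980, 1345 and 1671 in SDD libraries and 1178, 1082 and 1960 in NIL libraries. No RISDD library reached the lowest of any other group. It fell in RISDD against SDDIR (log2 change -1.01 ± 0.27, adjusted p = 0.0401, limma), against SDD (-0.88 ± 0.24, adjusted p = 0.0128, limma) and against NIL (-0.94 ± 0.24, adjusted p = 0.00881, limma), where it was -0.67 without NIL C. The call against SDD was lost without SDD C (adjusted p = 0.0581, limma), and that against SDDIR without SDD B or any 1 of the RISDD or SDDIR libraries (adjusted p of 0.0653 to 0.218, limma). The paralogue Kif21a was not called in any comparison. Kifc2, a minus-end motor of axons and dendrites, was low, with 35.0, 30.0 and 16.6 in SDD libraries, against 10.6, 8.92 and 5.82 in NIL libraries (log2 change 1.55 ± 0.39, adjusted p = 0.0233, limma). Its call was lost without SDD A or SDD B (adjusted p of 0.0792 to 0.0845, limma), and without NIL C its change was 1.33. With Kif1c also lost without SDD A, the count of transport kinesins called was then 0.

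**Figure D2:**
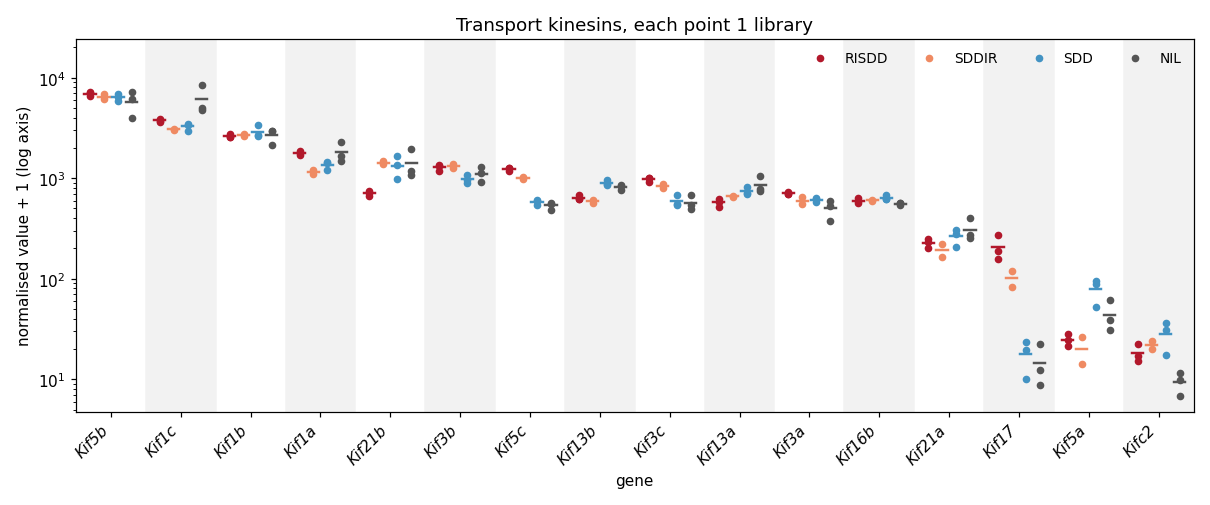
Normalised value + 1 of the 16 transport kinesins (log axis), 1 point per library, with RISDD, SDDIR, SDD and NIL from left to right within each gene and a short line at each group's mean. Kif5c and Kif17 are higher in both HRAS groups than in the others. Kif5a, at a low level, is higher in SDD than in both HRAS groups and overlaps between SDD and NIL. Kif21b is low in RISDD, and Kif5b lies between 3946 and 7208 in all libraries.

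Against NIL, transport kinesins split evenly. In RISDD 4 rose and 4 fell, and in SDDIR 3 rose and 3 fell, where 46.7% and 33.5% of all genes were called, with 23.2% higher and 23.5% lower in RISDD and 15.3% higher and 18.2% lower in SDDIR. Kif17 was 14.9-fold and Kif5c 2.32-fold higher in RISDD than in NIL, and both were called without each library in turn. Kif3c and Kif3a were the other members that rose in RISDD, at log2 changes of 0.79 and 0.53. Kif21b, Kif1c, Kif13a and Kif13b fell. Without NIL C, Kif3a stood at 0.33 (adjusted p = 0.0147, limma) and Kif1c at -0.39 (adjusted p = 0.00229, limma) in RISDD. In SDD against NIL, Kif5a (1.14, adjusted p = 0.0409, limma) and Kif3b (-0.31, adjusted p = 0.0426, limma) passed without NIL C. Kif3a lost its call without any 1 of the RISDD libraries, Kif1c without RISDD A or RISDD B, and Kif13b without NIL A, RISDD A or RISDD B (adjusted p of 0.0562 to 0.0810, limma). The count of 8 was 5 without RISDD A or without RISDD B. In SDDIR the count of 6 was 2 without SDDIR A or without SDDIR B.

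The 9 other kinesins act in signalling, cilia, early neuronal shape or cell adhesion. In RISDD against SDD 2 rose and 2 fell, in SDDIR against SDD 1 rose and 2 fell, and in SDD against NIL 0 rose and 2 fell, where 42.6%, 22.5% and 17.6% of all genes were called. In RISDD against SDDIR limma called 0 of them and 1 had an unadjusted p under 0.05. Kif7, the ciliary regulator of Gli factors in Hedgehog signalling, had 64.3, 58.7 and 83.0 in RISDD libraries, 152 and 121 in SDDIR libraries, 260, 272 and 285 in SDD libraries and 228, 148 and 385 in NIL libraries. Every RISDD library was under every other library. It was 3.97-fold lower in RISDD than in SDD (log2 change -1.99 ± 0.30, adjusted p = 0.000396, limma), which held under all 24 alternatives. SDDIR against SDD gave -1.0 ± 0.34 (adjusted p = 0.0577, limma), and the same change passed without NIL C (adjusted p = 0.00387, limma).

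Kif26b, a motor-like protein needed for the adhesion of embryonic kidney mesenchyme and active in Wnt5a signalling, was highest in NIL. It had 214, 272 and 221 in RISDD libraries, 210 and 358 in SDDIR libraries, 648, 775 and 485 in SDD libraries and 1265, 1301 and 1693 in NIL libraries. It fell in SDD against NIL (log2 change -1.17 ± 0.24, adjusted p = 0.00843, limma), in SDDIR against SDD (-1.18 ± 0.26, adjusted p = 0.00878, limma) and in RISDD against SDD (-1.41 ± 0.24, adjusted p = 0.000728, limma). SDDIR against SDD did not pass when SDDIR A was left out (adjusted p = 0.116, limma), and SDD against NIL gave -1.04 without NIL C (adjusted p = 0.0114, limma). Summed fibroblast markers followed the same order of groups, from 95938 to 99696 in RISDD up to 743582 to 1087247 in NIL, and their part in the result was not tested.

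Kif2a, a microtubule depolymerase that prunes axon collaterals and also works at spindle poles, had 3378, 3747 and 3553 in RISDD libraries, 2995 and 3161 in SDDIR libraries, 1531, 1861 and 1984 in SDD libraries and 1779, 2036 and 690 in NIL libraries. All HRAS libraries lay above all others. It rose 2.00-fold in RISDD against SDD (log2 change 1.0 ± 0.33, adjusted p = 0.0308, limma), a call lost without any 1 of the RISDD or SDD libraries (adjusted p of 0.0568 to 0.107, limma). SDDIR against SDD gave 0.79 ± 0.37 (adjusted p = 0.159, limma). Without NIL C, the lowest NIL library, these changes were the same, with adjusted p = 9.37e-06 in RISDD and 0.000286 in SDDIR (limma). Kifc3, a minus-end motor at the Golgi and at adherens junctions, had 394, 431 and 351 in SDD libraries, against 564, 622 and 1338 in NIL libraries (log2 change -0.99 ± 0.27, adjusted p = 0.0321, limma). Its call was lost without any 1 of the RISDD, SDDIR or SDD libraries (adjusted p of 0.0516 to 0.112, limma). Without NIL C it was -0.60 (adjusted p = 0.00395, limma).

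Against NIL, 3 other kinesins rose and 4 fell in RISDD, and 2 rose and 3 fell in SDDIR. Over all genes 23.2% were called higher and 23.5% lower in RISDD, and 15.3% higher and 18.2% lower in SDDIR. The remaining genes with calls were of low value. Kif9, a motor of ciliary beating, had 3.39 and 5.93 in SDDIR libraries, against 19.2, 14.5 and 14.1 in SDD libraries (log2 change -1.61 ± 0.44, adjusted p = 0.0253, limma), a call lost without any 1 of the SDDIR or SDD libraries (adjusted p of 0.0549 to 0.195, limma). Kif19b had 12.4, 20.2 and 12.6 in RISDD libraries and 18.6 and 5.93 in SDDIR libraries, and at most 1.13 in any SDD or NIL library. It met the minimum value in 4 libraries, the 3 RISDD libraries and SDDIR A, and was therefore tested only because of the groups in which it was high. It was called higher in both HRAS groups, which is given as a description, and the call in SDDIR against SDD was lost without SDD C or SDDIR A (adjusted p of 0.0521 to 0.183, limma). Its near copy Kif19a, called in RISDD against NIL only, had 34.6, 20.2 and 19.0 in RISDD libraries, against 0.814, 3.34 and 18.4 in NIL libraries, and its call was lost without any 1 library other than NIL C, SDD A and SDD C (adjusted p of 0.0510 to 0.119, limma). Kif19a met the minimum value in 5 libraries, the 3 RISDD libraries, SDDIR A and NIL C. It was therefore tested only because of RISDD, where it was high, and its call is given as a description too. Reads of Kif19a and Kif19b, and of Kifc1 and its near copy Kifc5b, could be split between the copies, so their values are uncertain. Kif26a and Kif27 were called in no comparison.

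**Figure D3:**
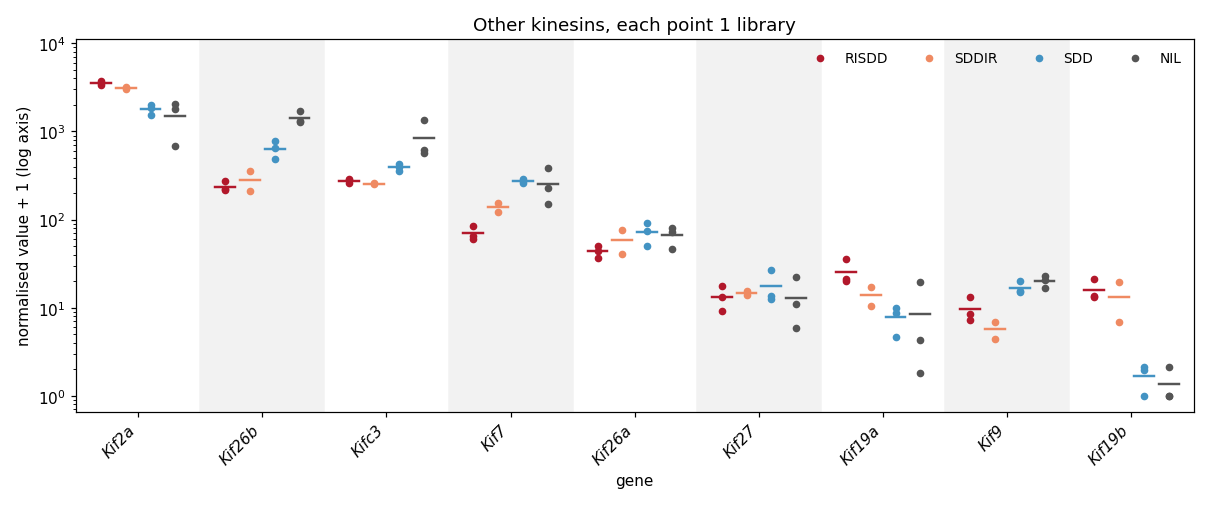
Normalised value + 1 of the 9 other kinesins (log axis), 1 point per library, with RISDD, SDDIR, SDD and NIL from left to right within each gene and a short line at each group's mean. Kif2a is at 2995 or more in all HRAS libraries and at most 2036 elsewhere, and Kif26b is lower in the HRAS groups than in SDD and NIL.

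Across the family, 29 of the 38 members were called in at least 1 of the 6 comparisons and 9 in none, where 63.6% of all genes were called in at least 1. In RISDD against SDD 6 rose and 10 fell, in SDDIR against SDD 4 rose and 4 fell, and in SDD against NIL 11 rose and 3 fell. The share of members called was 42.1%, 21.1% and 36.8% in these comparisons, against 42.6%, 22.5% and 17.6% of all genes, so the first and second lie at the background. Of the 11 members that rose in SDD against NIL, 10 were mitotic, and the 4 that rose in SDDIR against SDD were 3 transport kinesins and Kif19b, which was tested through its high groups. Whether the roles differ was described by these counts and was not tested.

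**Figure D4:**
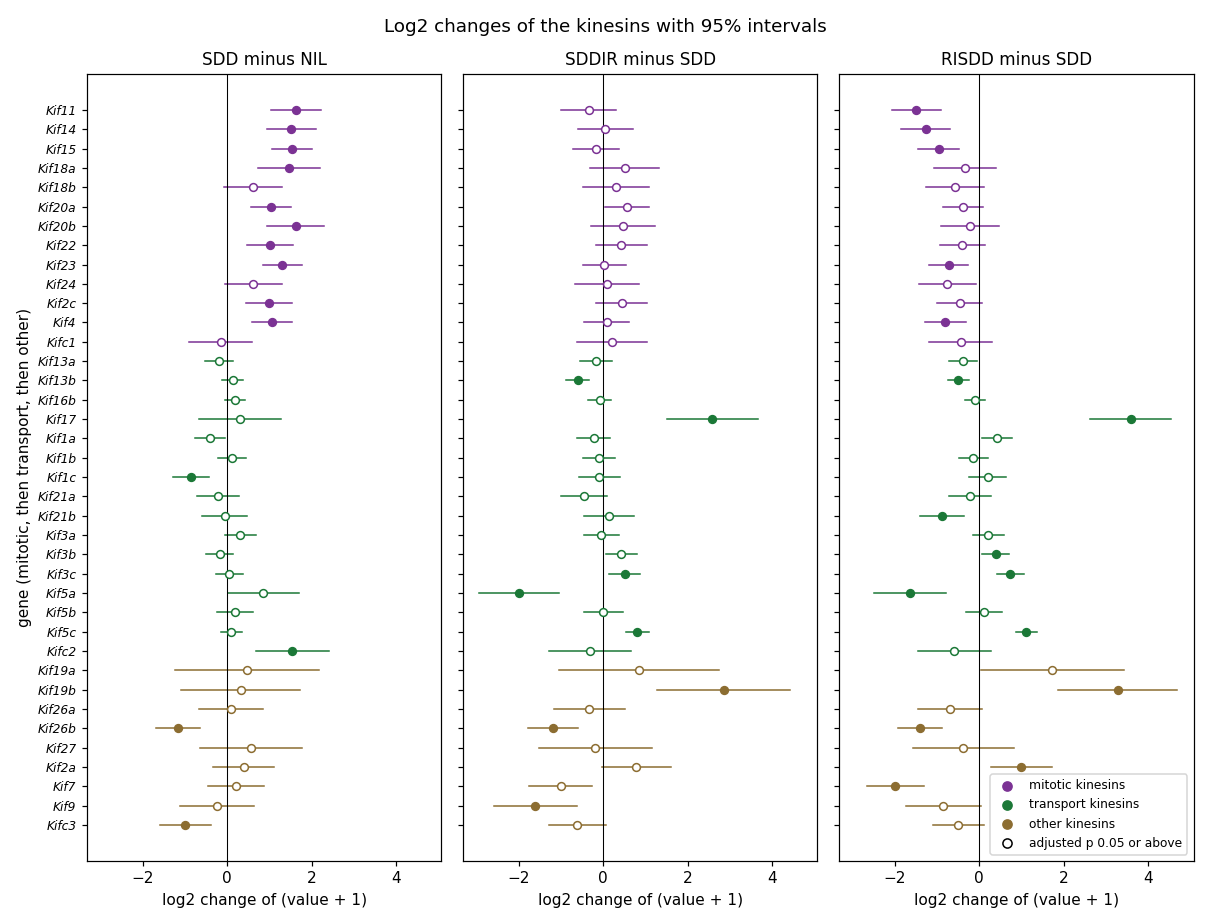
Change in log2(normalised value + 1) of all 38 kinesins in SDD minus NIL, SDDIR minus SDD and RISDD minus SDD, with points at the estimate and lines over the 95% interval. Filled points have adjusted p under 0.05, and colours give the role. Mitotic members lie to the right in SDD minus NIL (median 1.06) and to the left in RISDD minus SDD (median -0.57).

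Levels between kinesins were compared per kilobase of the longest GENCODE M21 coding transcript. Kif5b was at or near the top in every group, with 1142 ± 47.8 per kilobase in RISDD (SD, n = 3), 1068 ± 86.9 in SDDIR (SD, n = 2), 1062 ± 76.4 in SDD (SD, n = 3) and 958 ± 277 in NIL (SD, n = 3). In SDDIR the level of Kif20a, 1077 ± 0.419 per kilobase (SD, n = 2), did not differ from that of Kif5b beyond its spread. The second level was that of Kif2a in RISDD, at 671 ± 34.8, of Kif20a in SDD, at 728 ± 120, and of Kif1c in NIL, at 916 ± 315 (SD, n = 3 each). Kif1c and Kif5b in NIL did not differ beyond their spread.

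Genes that act with mitotic kinesins were counted beside them. Of 22 such partners, 16 rose and 1 fell in SDD against NIL, 0 were called in SDDIR against SDD, and 1 rose and 10 fell in RISDD against SDD. Over all genes, 9.32% were called higher and 8.26% lower in SDD against NIL, 22.5% were called in SDDIR against SDD, and 20.0% were called higher and 22.6% lower in RISDD against SDD. Nusap1, a spindle microtubule bundler, had 297, 299 and 386 in RISDD libraries and 1138 and 1103 in SDDIR libraries, against 1328, 935 and 1168 in SDD libraries, with 526, 313 and 193 in NIL libraries. It was 3.48-fold lower in RISDD than in SDD (log2 change -1.80 ± 0.30, adjusted p = 0.000752, limma) and 3.56-fold higher in SDD than in NIL (1.83 ± 0.30, adjusted p = 0.00350, limma), or 1.48 without NIL C (adjusted p = 0.00148, limma). Aurkb, the kinase that phosphorylates Kif23 and Kif2c, fell by 1.55 in RISDD against SDD on the log2 scale, and Top2a, the topoisomerase of chromosome separation, fell by 1.45. Cenpe, the centromere kinesin whose symbol does not have the family's form, had 2472, 1976 and 2451 in RISDD libraries and 3416 and 3724 in SDDIR libraries, against 3244, 2732 and 2863 in SDD libraries, with 1458, 851 and 695 in NIL libraries. It rose in SDD against NIL (log2 change 1.63 ± 0.23, adjusted p = 0.00184, limma), and by 1.4 without NIL C.

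Light chains and cargo adaptors were called in both directions. Of 27, 6 rose and 4 fell in RISDD against SDD, 4 rose and 3 fell in SDDIR against SDD, and 1 rose and 3 fell in SDD against NIL. These are 10, 7 and 4 of 27, against 42.6%, 22.5% and 17.6% of all genes, so none stands clearly above the background. Klc3, a kinesin-1 light chain, had 299, 237 and 273 in RISDD libraries and 163 and 213 in SDDIR libraries, against 101, 104 and 68.2 in SDD libraries. It was 2.97-fold higher in RISDD than in SDD (log2 change 1.57 ± 0.30, adjusted p = 0.00170, limma). Mapk8ip3, the JIP3 scaffold that links kinesin-1 to vesicles and to JNK, rose 2.17-fold in RISDD (adjusted p = 8.70e-05, limma) and 2.11-fold in SDDIR (adjusted p = 0.000745, limma) against SDD. Mapk8ip1, the JIP1 scaffold, fell by 1.15 in RISDD and by 0.85 in SDDIR on the log2 scale against SDD (adjusted p = 0.00180 and 0.0316, limma), and the second call was lost without SDD A, SDD B, SDDIR A, SDDIR B or RISDD A (adjusted p of 0.0513 to 0.204, limma). Arl8a, the lysosomal GTPase that recruits kinesins through SKIP, had 1027, 940 and 933 in SDD libraries, against 1558, 1683 and 1732 in NIL libraries (log2 change -0.78 ± 0.10, adjusted p = 0.00116, limma).

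Dynein and dynactin, the minus-end machinery that works against kinesins, gave 6 genes that rose and 0 that fell among 26 in RISDD against SDD, 0 called in SDDIR against SDD, and 0 that rose and 2 that fell in SDD against NIL. Over all genes 42.6%, 22.5% and 17.6% were called, with 20.0% called higher in RISDD against SDD, so 6 of 26 is near that share and the other counts are under it. Dync1li1, a light intermediate chain that binds adaptors, had 2480, 2635 and 2641 in RISDD libraries, against 1512, 1643 and 1539 in SDD libraries (log2 change 0.72 ± 0.11, adjusted p = 0.000374, limma). Bicdl1, an adaptor that joins dynein to Rab6 vesicles and binds Kif1c, was 2.72-fold higher in RISDD than in SDD and 2.70-fold higher than in SDDIR (adjusted p = 0.00168 and 0.0171, limma), and the second call was lost without any 1 of the RISDD or SDDIR libraries (adjusted p of 0.0556 to 0.133, limma).

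Among 30 tubulins and microtubule-associated proteins, 5 rose and 11 fell in RISDD against SDD, 3 rose and 7 fell in SDDIR against SDD, and 5 rose and 2 fell in SDD against NIL. These are 16, 10 and 7 of 30, against 42.6%, 22.5% and 17.6% of all genes. Tuba4a, an alpha-tubulin, had 2057, 2026 and 2051 in RISDD libraries and 1640 and 1570 in SDDIR libraries, against 301, 390 and 323 in SDD libraries, and was 6.07-fold and 4.77-fold higher. Tubb3, the neuronal beta-tubulin, had 773, 733 and 526 in RISDD libraries, against 3863, 2791 and 2923 in SDD libraries (log2 change -2.24 ± 0.31, adjusted p = 0.000208, limma). Dcx, a microtubule stabiliser of young neurons, had 19.8, 16.2 and 1.58 in RISDD libraries and 28.8 and 94.8 in SDDIR libraries, against 1062, 872 and 644 in SDD libraries. It fell by 6.44 in RISDD and by 3.98 in SDDIR on the log2 scale, the second call being lost without SDDIR A (adjusted p = 0.121, limma). Stmn2, a microtubule regulator of growing axons, had 119, 254 and 201 in RISDD libraries, against 18.6 and 58.1 in SDDIR libraries (log2 change 2.43 ± 0.59, adjusted p = 0.0280, limma), a call lost without SDDIR A, RISDD B or RISDD C (adjusted p of 0.0894 to 0.274, limma).

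The genes outside the family whose values across the 11 libraries were most like those of 3 kinesins were taken from 10628 genes with a mean of at least 100. For Kif5c they were Sh2d5 (Pearson r = 0.995), Cyp51 (0.993) and Dsg2 (0.990). For Kif1a they were Efnb1 (0.951), Kctd10 (0.950) and Mt1 (0.941). For Kif11 they were Top2a (0.988), Zkscan5 (0.982) and Anln (0.982). The libraries fall into the study's groups, so each r describes a shared pattern over groups and carries no p.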

How the data were processed

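The authors deposited 1 table of normalised values for 23077 genes, a signal that equals gene counts divided by 1 constant per library. All values came out as whole multiples of that constant (tolerance 0.001 reads), and the recovered reads per library are the depths given. Per the submitters' processing notes, Trim Galore 0.6.10 and Salmon 1.10.3 were used with GRCm39, with no role stated. The table has 12 sample columns. The SDDIR B heading is repeated over a copy of the same values, which left 1 column not used and SDDIR B counted once, and the third labelled SDDIR sample was not analysed here. The labels call replicates biological without saying that cultures were separate, so p-values measure the spread between these libraries, which may be technical. No batch is labelled.

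Genes at 10 or more in at least 3 libraries were tested on log2(value + 1) with limma 3.58.1 (trend and robust moderation, R 4.3.3). All 4 groups entered 1 fit, with Benjamini-Hochberg adjustment over 14207 genes, and fold changes on this scale understate those of low genes. The procedure was tested on simulated data with the same spread for all genes and libraries. Those data held no outlying library such as NIL C, so they cannot tell how reliable the calls are that NIL C moves. Recovered reads were tested with edgeR 4.0.16 and DESeq2 1.42.0 as alternatives, beside other scalings, pseudocounts, filters, moderation, library weights, fits on 2 groups, a replicate block and leaving out each library. Same-letter replicates deviated from their group means together to a small degree, with correlations that were all positive (0.000225 to 0.271). Letters were not taken to pair libraries in the main fit, and the replicate block was an alternative only. Replicate B had the lowest mitotic kinesin sum of each group (9133 in RISDD, 18817 in SDDIR, 14506 in SDD and 5655 in NIL). A shared effect of the letter was not tested.

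The members, roles, gene lists and motifs were chosen with earlier results of these data known, and support nothing by being listed. Named members were those with the largest called log2 changes in each role (up to 5 per comparison, group mean of at least 100) plus Kif5a, Kif5b, Kif5c, Kif1a and Kif11, and up to 3 genes per pathway list. Other members named with values were chosen after these were seen. Promoters are RefSeq windows on GRCm38.p6, used by symbol, for 29 of the 38 members.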

Additional observations from a re-analysis of the deposited data

How the results depend on the processing

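No called value changed sign, and 35 of the 85 called kinesin results and 36 of the 61 named pathway gene results kept their call under all 24 alternatives. Counts that moved by over 1.5 times are given as higher plus lower, and the cause was not tested except where fewer libraries were fitted.

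A fit on 2 groups alone called, in SDD against NIL, 697 genes, 4 mitotic, 0 transport and 1 other kinesin. It called 5361 genes, 5 mitotic and 6 other kinesins in SDDIR against SDD, 11 mitotic kinesins in RISDD against SDD, 4923 genes, 13 mitotic, 5 transport and 2 other kinesins in RISDD against SDDIR, 1590 genes, 5 mitotic, 2 transport and 1 other kinesin in SDDIR against NIL, and 1 mitotic and 4 transport kinesins in RISDD against NIL. Library weights gave 1 transport and 1 other kinesin in SDD against NIL, 6902 genes, 5 mitotic and 6 other kinesins in SDDIR against SDD, 9781 genes and 11 mitotic kinesins in RISDD against SDD, and 5346 genes, 13 mitotic, 6 transport and 1 other kinesin in RISDD against SDDIR.

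In RISDD against SDDIR, DESeq2 called 2258 genes and 8 mitotic kinesins, and edgeR, a pseudocount of 0.5, quantile scaling, upper-quartile scaling and no filter each called 1 transport kinesin. Neither trend nor robust moderation left 2 mitotic and 0 transport kinesins there and 3 mitotic kinesins in RISDD against NIL, as did no filter and upper-quartile scaling. With SDDIR B counted as 2 libraries, a choice made after seeing the data, 1 mitotic kinesin was called in SDDIR against SDD, and 2519 genes, 8 mitotic and 1 other kinesin in RISDD against SDDIR. A minimum value of 50 tested fewer genes and left 1 transport kinesin in SDD against NIL, and 1, 3 and 4 other kinesins in SDDIR against SDD, SDDIR against NIL and RISDD against NIL. The replicate block gave 8 mitotic, 1 transport and 1 other kinesin in RISDD against SDDIR and moved no other count by over 1.5 times.

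Leaving out each library in turn gave, in SDD against NIL, 1231 to 4128 genes, 7 to 12 mitotic, 0 to 4 transport and 1 to 2 other kinesins. It gave 1673 to 6337 genes, 0 to 1 mitotic, 3 to 6 transport and 0 to 6 other kinesins in SDDIR against SDD. In RISDD against SDD it gave 4804 to 8983 genes, 3 to 9 mitotic, 5 to 10 transport and 3 to 6 other kinesins. In RISDD against SDDIR it gave 308 to 4182 genes, 0 to 13 mitotic, 0 to 4 transport and 0 to 1 other kinesins. In SDDIR against NIL it gave 2343 to 6899 genes, 9 to 13 mitotic, 2 to 8 transport and 2 to 6 other kinesins, and in RISDD against NIL 5039 to 8439 genes, 1 to 6 mitotic, 5 to 9 transport and 5 to 6 other kinesins. Without SDDIR A or B the lone SDDIR library is assumed to vary like the other groups. Depth limits Kif9, Kif19a, Kif19b and Kif27, whose lowest values are of a few reads.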
